A study of Mus musculus with 34 samples.

Results

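H3K27ac, the acetylation of lysine 27 of histone H3, was measured by chromatin immunoprecipitation and sequencing in mouse embryonic stem cells of a DBA/2J line (D2, cell line D2 5-5) and of the congenic line D2-13B6 (cell line XE 2-4), which carries a segment of chromosome 13 from C57BL/6J (B6) on the D2 background. All 3 libraries of each line were used, 6 of the 34 libraries of the series. The labels give the D2-13B6 genotype as D2.B6-(rs29224292-rs13469455)/Bakr, while the series text names rs51756099 as the second marker, so the end of the segment is uncertain. The 3 libraries of B6 (cell line B6 5-1) and the 3 of the reciprocal line B6-13D2 (cell line QJ 6-1, B6.D2-(rs30079041-rs51756099)/Bakr), which carries D2 sequence on chromosome 13 of a B6 background, shared the fit. All 4 lines were grown in serum with LIF and the inhibitors PD0325901 and CHIR99021, which block MEK and GSK3, and no line had a separate treatment. The series title names the regulation of heterochromatin in trans as its subject. Each genotype was 1 cell line, and its libraries are technical replicates per the labels, so every test compares 2 lines and its p-value measures the spread between libraries, not between lines or animals.

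H3K27ac is laid down by acetyltransferases at active promoters and enhancers, while H3K9me3, trimethylation of lysine 9 of histone H3, covers silent chromatin and transposable elements. In embryonic stem cells, many KRAB zinc finger proteins bind transposable elements and recruit the cofactor TRIM28 and the methyltransferase SETDB1, which place H3K9me3 there. Mouse chromosome 13 holds a large cluster of genes for such proteins. By their genotype labels the D2 and D2-13B6 lines share a D2 background outside the segment. On that labelling a difference on another chromosome lies outside the exchanged sequence. Whether D2-13B6 holds B6 sequence on other chromosomes was not tested.

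The table listed 248336 regions, and 192158 passed the filter on low counts. Levels are given in CPM, read counts as a proportion of the TMM-scaled library size, and differences are log2 of D2-13B6 over D2, so that a positive value stands for a higher level in D2-13B6. Libraries held 8735674 to 10221907 counts in D2 and D2-13B6. Replicates 1 and 3 of D2 differed by less than the sampling noise, as did replicates 2 and 3 of D2-13B6, and each pair was summed and counted as 1 sample, leaving n = 2 per line. Replicate 1 of D2-13B6 stood apart from the other 2 of its line, with a chi-square per degree of freedom of 2.81 and 2.79 against 0.905 between those 2. At promoters of embryonic stem cell markers (Pou5f1, Sox2, Nanog and others), 9 of 10 genes had a tested region and 0 were called in either direction, by edgeR's quasi-likelihood test or by DESeq2 at an adjusted p under 0.05 or an unadjusted p under 0.05. Their summed level was 854 to 938 CPM in D2 and 909 to 945 CPM in D2-13B6. Summed fibroblast markers lay at 35.4 to 39.9 CPM in D2 and at 19.5 to 37.9 CPM in D2-13B6, where the lowest value was that of replicate 1. No defining marker of fibroblasts, endoderm or trophoblast with a tested region was at 0 counts in any of the 12 libraries, and the part of such cells in the results was not tested.

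Off chromosomes 11 and 13, H3K27ac was higher in D2-13B6 at 8138 regions and lower at 2113 of 169829 tested, which is 4.79% and 1.24% (edgeR quasi-likelihood test, Benjamini-Hochberg adjustment). Over all chromosomes 12824 regions were called, 6.67% of those tested. With counts scaled by library totals the split off chromosomes 11 and 13 was 7986 higher and 3572 lower, or 69.1% higher in place of 79.4%. Leaving out replicate 2 of D2 or replicate 1 of D2-13B6 leaves 1 sample in that line, whose spread is then taken from the other lines. Without replicate 2 of D2 7110 regions were called over all chromosomes, 4685 higher and 1025 lower off chromosomes 11 and 13. The gains were larger than the losses: 1927 gains but 73 losses were at least 4-fold.

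Most of the strongest gains carried the same DNA sequence. The 20-base sequence held by the most regions at least 4-fold higher off chromosomes 11 and 13 was taken. It was present in 1235 of these 1927 regions (64.1%), the share it was chosen on. Of all other tested regions there, 565 of 167902 (0.337%) held the sequence. It is shown here together with the central 300 bases of 2 gained regions that hold it, because this shared sequence is what the largest gains have in common. Capitals mark the 20 bases, and the sequences are from RefSeq GRCm38.p6.

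Shared 20 bases: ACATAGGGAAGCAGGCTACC

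Region near Defb12, chr8:19090768-19091067, minus strand: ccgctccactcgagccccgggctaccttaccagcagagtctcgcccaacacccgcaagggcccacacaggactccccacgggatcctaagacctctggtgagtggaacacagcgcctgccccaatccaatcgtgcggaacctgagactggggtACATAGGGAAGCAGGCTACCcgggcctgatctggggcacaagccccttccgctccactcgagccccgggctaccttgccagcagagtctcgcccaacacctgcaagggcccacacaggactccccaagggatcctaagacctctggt

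Region near Mettl22, chr16:8460786-8461085, plus strand: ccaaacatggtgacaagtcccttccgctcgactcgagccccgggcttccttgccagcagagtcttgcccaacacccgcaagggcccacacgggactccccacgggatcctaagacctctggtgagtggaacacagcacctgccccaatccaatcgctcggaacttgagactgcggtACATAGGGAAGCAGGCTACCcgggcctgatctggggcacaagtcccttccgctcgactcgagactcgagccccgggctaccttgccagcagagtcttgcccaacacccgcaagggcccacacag

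In the reference genome this sequence had 7619 exact matches on both strands. Of the 4637 pairs of neighbouring matches within 1 kb, 3514 were 208 bp apart and 694 were 201 bp apart, so that 90.7% of pairs had 1 of these spacings. The matches formed 2982 arrays, and 2046 arrays had 2 or more matches. Downstream of 1342 arrays, within 8 kb, lay an open reading frame of at least 1000 codons, with a median of 1281 codons, whereas 15 arrays had one upstream. This is the layout of full-length mouse LINE-1 elements (L1), retrotransposons whose promoter is a tandem array of monomers followed by the long second reading frame. The name rests on this layout, since no repeat annotation was used. L1 elements copy themselves through RNA, and in embryonic stem cells their promoters are held down by H3K9me3 and other silencing marks.

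Among the regions listed, 2058 held the L1 promoter sequence and 1941 of these passed the filter on low counts, 1800 of them off chromosomes 11 and 13. Their summed H3K27ac was 1680, 1770 and 1710 CPM in replicates 1 to 3 of D2. In D2-13B6 it was 10200, 8650 and 9000 CPM, and the mean of the libraries was 5.4 times that of D2. Every D2-13B6 library lay above every D2 library, and replicate 1, which stood apart, was the highest. The sequence was chosen on this contrast, so the calls at these 1800 regions describe the choice: 1580 were called higher and 0 lower by edgeR, against 4.79% and 1.24% of all regions, with a median log2 difference of 2.37. DESeq2 called 1214 higher and 0 lower, and 0 were lower by either tool at an unadjusted p under 0.05. Without replicate 1 of D2-13B6 the number called higher was 1534.

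Holders on chromosomes 11 and 13, which were not used to find the sequence, were higher as well, but they carry the same repeat and their counts may include reads of the copies that chose it, so they are not shown to be independent. On chromosome 11, 41 of 45 holders were called higher and 0 lower by edgeR (31 and 0 by DESeq2; 0 lower at an unadjusted p under 0.05), with a median of 2.39, where 11.6% of all tested regions of that chromosome were called higher. Summed over these 45 regions, H3K27ac was 42.8, 48.4 and 42.6 CPM in D2 and 304, 254 and 243 CPM in D2-13B6. On chromosome 13, 81 of 96 holders were higher and 1 was lower, with a median of 2.14, where 4.58% of all tested regions were higher. Summed over these 96 regions, D2 measured 235, 224 and 231 CPM and D2-13B6 594, 499 and 526 CPM. The sum on chromosome 13 rose 2.35-fold, against 5.99-fold on chromosome 11, although the medians were 2.14 and 2.39. A sum gives more weight to holders with many counts. By chromosome, the median of the holders lay between 2.14 (chromosome 13) and 2.55 (chromosome X), a description that includes the chromosomes on which the sequence was chosen.

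**Figure D1:**
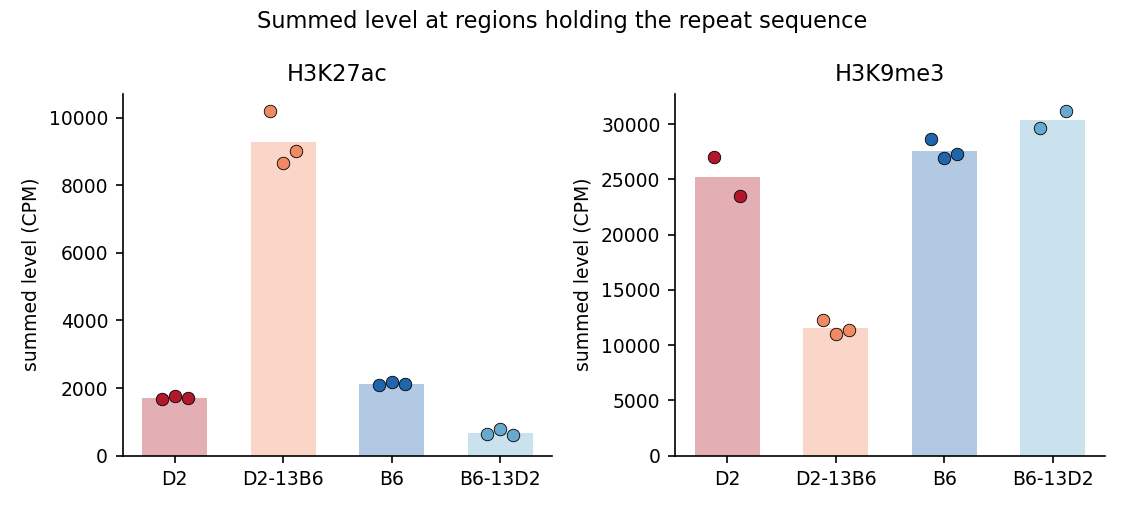
Summed level in CPM at the 1800 regions off chromosomes 11 and 13 that hold the L1 promoter sequence, for H3K27ac (left) and H3K9me3 (right), with 1 point per library and bars at the mean. H3K27ac lies at 8650 to 10200 CPM in D2-13B6 and at 2190 CPM or lower in the other lines, while H3K9me3 is lowest in D2-13B6.

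H3K9me3 at the same regions went the other way. It was measured in other libraries of the same lines, 2 of D2 and 3 of D2-13B6, which the search for the sequence did not use. Summed over the 1800 regions, H3K9me3 was 27000 and 23500 CPM in D2 and 12300, 11000 and 11400 CPM in D2-13B6, with no overlap between the lines. Of 1775 of these regions tested for H3K9me3, 583 (32.8%) were called lower in D2-13B6 and 0 higher by edgeR, with a median log2 difference of -1.13. DESeq2 called 211 lower and 0 higher, and 0 were higher by either tool at an unadjusted p under 0.05. Of all regions in the H3K9me3 data, 2.2% were called, 343 higher and 1572 lower. With the holders on chromosomes 11 and 13, 636 were called lower, which fell to 201 without replicate 1 of D2 and to 379 without replicate 2 of D2-13B6. Without replicate 1 of D2-13B6, which stood apart in this mark too, 655 were called lower.

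On the B6 background, too, H3K27ac at the L1 promoters off chromosomes 11 and 13 was higher with the B6 segment, and H3K9me3 was lower by a small amount. That comparison, B6 minus B6-13D2, is again the B6 segment against the D2 segment and shares no library with D2 and D2-13B6. Summed H3K27ac at the 1800 regions was 2080, 2190 and 2110 CPM in B6 and 630, 777 and 614 CPM in B6-13D2, and edgeR called 962 regions (53.4%) higher in B6 and 0 lower, where 5.34% and 7.48% of all regions off chromosomes 11 and 13 were higher and lower. DESeq2 called 376 higher and 0 lower, and 0 were lower by either tool at an unadjusted p under 0.05. Their median log2 difference was 1.67, and the difference between the backgrounds was called at 112 holders (6.22%) in the direction of a larger gain in D2-13B6 and at 4 (0.222%) in the other, where 3.69% and 1.4% of all regions were called. Summed H3K9me3 was 28600, 26900 and 27300 CPM in B6 and 29600 and 31200 CPM in B6-13D2, and 98 of 1775 regions (5.52%) were called lower in B6 and 0 higher by edgeR (258 and 28 at an unadjusted p under 0.05), where 0.918% and 0.458% of all regions off chromosomes 11 and 13 were lower and higher. The median log2 difference there was -0.09. The H3K9me3 difference between backgrounds was called at 160 of the 1775 regions, all of them with the lower value in the D2-13B6 contrast, where 0.389% of all tested regions were called. At the 96 holders on chromosome 13 the H3K27ac sum went the other way, with 126, 123 and 115 CPM in B6 and 171, 182 and 179 CPM in B6-13D2. Of these 96, edgeR called 53 higher and 3 lower in B6, with a median log2 difference of 1.63.

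**Figure D2:**
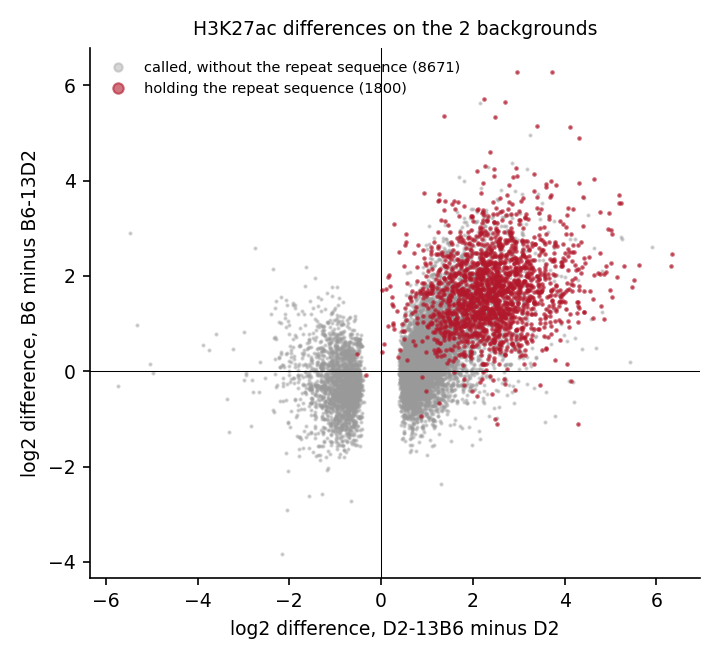
Log2 difference in H3K27ac on the D2 background (x axis, D2-13B6 minus D2) and on the B6 background (y axis, B6 minus B6-13D2) for called regions off chromosomes 11 and 13 without the L1 promoter sequence (grey) and for the 1800 regions that hold it (red). The red points lie mostly in the upper right, with medians of 2.37 and 1.67, and the empty strip around 0 on the x axis comes from showing only called grey regions.

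The profile around the sequence uses the same regions that chose it, so a peak at the match follows from the choice and is given as a description. Regions centred within 500 bp upstream of the nearest match had a median of 2.32 (1213 of 1382 higher), and those within 500 bp downstream a median of 2.41 (785 of 888 higher). Between 500 and 1000 bp upstream the median was 0.91 over 42 regions, and between 2 and 4 kb upstream it was 0.36 over 139 regions, of which 24 were higher. Downstream, where the body of the element lies, 21 regions were tested between 500 bp and 6 kb, 3 of which were higher. Regions with 3 or more matches had a median of 2.75 and regions with 1 match a median of 2.28, with 95.7% and 85% called higher. Their median widths were 900 and 313 bp, and the part of width in this was not tested. Holders next to a long downstream reading frame were called higher in 93.7% of cases (814 of 869) and the rest in 82.3% (766 of 931), but the size of the gain was alike, with medians of 2.37 and 2.36. On the B6 background the shares called higher were 51.3% and 55.4%. Counts of reads with several equal alignments depend on a setting not given in the sources used here, so a level at 1 copy may hold reads of other copies, and sums over copies are given for that reason.

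**Figure D3:**
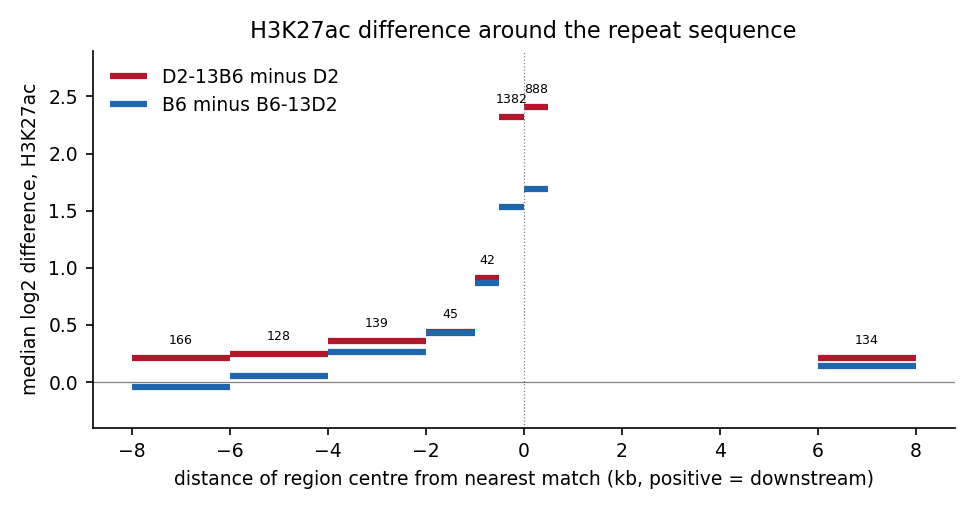
Median log2 difference in H3K27ac of regions off chromosomes 11 and 13 by the distance of the region centre from the nearest match of the L1 promoter sequence, in kb, for both backgrounds, with the number of tested regions above each bin. Bins with fewer than 20 regions are not drawn, and the medians are highest within 500 bp of a match, at 2.32 and 2.41 for D2-13B6 minus D2.

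The 6 named regions with the largest gains near protein-coding genes off chromosomes 11, 13, X and Y all held the L1 promoter sequence. The first, on chromosome 8 at 19090437 to 19091399, lay between genes 23.4 kb from the start of Defb12, which encodes an antimicrobial defensin. It measured 0.107, 0.452 and 0.343 CPM in D2 and 9.51, 8.54 and 8.18 CPM in D2-13B6, a log2 difference of 4.85 (SE 0.37, adjusted p = 2.77e-14 by edgeR's quasi-likelihood test). The region near Mettl22, on chromosome 16 at 8460554 to 8461317, measured 0.214, 0.904 and 0.571 CPM in D2 and 14.1, 12.1 and 13.8 CPM in D2-13B6. All 3 D2-13B6 libraries were far above D2 at both places. At the Mettl22 region H3K9me3 was 25.1 and 25.6 CPM in D2 and 11.7, 9.71 and 4.92 CPM in D2-13B6, and at the Defb12 region 21.5 and 15.5 CPM in D2 and 4.5, 12 and 10.5 CPM in D2-13B6. Of the 6 regions, H3K9me3 was called lower by edgeR at those near Mettl22, Adamts15 and Olfr459 (adjusted p = 0.000687, 0.00793 and 0.0326) and not at those near Defb12, Ly6g and Olfr502 (0.152, 0.175 and 0.0549). The other 4, near the olfactory receptor genes Olfr459 and Olfr502, the protease gene Adamts15 and the neutrophil antigen gene Ly6g, had log2 differences of 4.61 to 4.65.

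Gains away from L1 promoters were more numerous and smaller. Of the 8138 gains, 6115 lay more than 2 kb from any match, with a median log2 difference of 0.97, while 1580 held the sequence and 443 lay within 2 kb without holding it. The distant gains had a median level of 3.76 CPM in D2, 7.63 in D2-13B6, 5.63 in B6 and 4.24 in B6-13D2. On the B6 background 1769 of them (28.9%) were also higher with the B6 segment and 488 (7.98%) were lower, against 5.34% and 7.48% of all regions. They were soft-masked as repeats over a median of 31.4% of their length, against 15.5% for regions not called, and H3K9me3 was lower at 183 (4.77%) and higher at 3 (0.0782%) of 3834 tested, against 1.6% and 0.244% of all regions off chromosomes 11 and 13.

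Distant here means only that no exact match of the 20 bases lay within 2 kb. The 6 strongest distant gains were picked by the same rule after the values had been seen. The first, in an intron of the pseudogene Cyp2c53-ps near Cyp2c29 on chromosome 19, measured 0.857, 0.452 and 0.343 CPM in D2 and 14.2, 11.5 and 11.8 CPM in D2-13B6. The next, 40.7 kb from Crispld1, measured 0.535, 0.678 and 0.343 CPM in D2 and 11.3, 10 and 8.94 CPM in D2-13B6. These regions were soft-masked as repeats over 100% and 94.8% of their length, and H3K9me3 fell by 1.78 and 1.85 on the log2 scale. The third lay in an intron of Ksr2, which encodes a scaffold of the RAF and MEK kinases. The region, on chromosome 5 at 117438003 to 117442308, measured 5.03, 7.12 and 5.83 CPM in D2 and 90.5, 75.6 and 79.7 CPM in D2-13B6 (log2 difference 3.79, SE 0.16, adjusted p = 3.41e-23, edgeR). B6 was at 30.3, 30.6 and 29.9 CPM and B6-13D2 at 3.54, 5.6 and 4.42 CPM, so both lines with the B6 segment were above both lines with the D2 segment. A region between genes 16.1 kb from Cavin4, a caveolar coat protein gene, rose from 11, 11.6 and 11.8 CPM to 122, 140 and 147 CPM. Another in an intron of Mup6, a major urinary protein gene, masked over 89.8% of its length, rose from 3.53, 3.05 and 3.09 to 33.8, 34.4 and 35.2 CPM. H3K9me3 fell at these 3 as well: its log2 difference was -1.3 at Ksr2, -0.85 at Cavin4 and -2.05 at Mup6, with adjusted p = 7.97e-05 and 0.00553 at the first 2 by edgeR. The region 3.33 kb from Lrfn3 rose from 1.71, 2.6 and 1.83 CPM to 26.3, 23.6 and 22.5 CPM while both lines of the B6 background stayed at 1.13 CPM or lower, and there the backgrounds differed (adjusted p = 0.000848, edgeR).

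Few promoters were called. Of 13782 protein-coding genes off chromosomes 11 and 13 with a tested promoter region, 1.8% (248) were higher and 0.878% (121) lower. The median log2 difference was 0.77 over the promoter regions called higher and -0.73 over those called lower, and the losses include predicted genes inside the satellite array described further on. Overlap with a promoter was seen at 3.06% of all gains and 6.72% of all losses, against 8.17% of regions not called.

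The promoter with the largest gain was that of Obox6, an oocyte-specific homeobox gene on chromosome 7. Its region at 15838855 to 15840350 measured 4.39, 5.77 and 4.57 CPM in D2 and 24.2, 23.8 and 27.8 CPM in D2-13B6 (log2 difference 2.34, SE 0.18, adjusted p = 3.41e-14, edgeR). B6 was at 19.6, 18.2 and 20.5 CPM and B6-13D2 at 0.86, 1.47 and 0.632 CPM, a difference of 4.28 that was larger than on the D2 background (adjusted p of the difference between backgrounds 8.57e-05, edgeR). The 300 bases upstream of its annotated start are given because this promoter followed the segment on both backgrounds and held no L1 sequence; capitals mark CG dinucleotides, of which there are 2.

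Upstream of Obox6, chr7:15839679-15839978, minus strand: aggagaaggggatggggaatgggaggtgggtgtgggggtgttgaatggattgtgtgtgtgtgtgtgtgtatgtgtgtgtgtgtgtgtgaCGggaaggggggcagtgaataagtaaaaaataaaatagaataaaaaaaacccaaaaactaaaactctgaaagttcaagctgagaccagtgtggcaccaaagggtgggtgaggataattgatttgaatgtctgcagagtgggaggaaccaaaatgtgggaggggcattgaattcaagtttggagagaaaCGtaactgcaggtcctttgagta

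Obox6 lay in an unbroken run of 18 tested regions over 81.6 kb, all of them higher, from chromosome 7 position 15831165 to 15912798. The run also held Crxos and Crx, homeobox genes, and the gene of the selenoprotein Selenow. Summed over the run, H3K27ac was 97, 82.2 and 89 CPM in D2 and 270, 241 and 251 CPM in D2-13B6. It was 163, 171 and 183 CPM in B6 and 20.6, 25.1 and 24.2 CPM in B6-13D2. None of the 18 regions held the L1 sequence. At the Crxos promoter the level was 2.89, 2.37 and 2.4 CPM in D2 and 8.9, 7.3 and 8.62 CPM in D2-13B6.

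The next longest run of gains, 16 regions on chromosome 12 from 18162571 to 18327578, lay around 5730507C01Rik, and 1 of its regions held the L1 sequence. Its sum was 42.4, 35.4 and 28.6 CPM in D2 and 96.7, 90.9 and 86.7 CPM in D2-13B6, with 30 to 34.9 CPM in B6 and 23.1 to 25.5 CPM in B6-13D2. Shorter runs, picked after their values had been seen, lay away from L1 promoters or on top of them. On chromosome 6, 13 regions from 33955133 to 34014574 in and around Lrguk, a gene needed for sperm formation, were all higher and held no L1 sequence. Their sum was 58.7, 52.5 and 49.7 CPM in D2 and 183, 188 and 190 CPM in D2-13B6, with 60.8 to 63.8 CPM in B6 and 22.2 to 26.2 CPM in B6-13D2. On chromosome 5, 10 regions at Paxip1 and the serotonin receptor gene Htr5a rose from 167, 139 and 152 CPM to 257, 299 and 303 CPM. On chromosome 3, by contrast, 9 of 13 regions of a run over 10.8 kb near 1700008P02Rik held the L1 sequence, and their sum rose from 16.4, 16.3 and 14.6 CPM to 155, 143 and 155 CPM. H3K9me3 had a median difference of -1.54 in that run, against -0.27 at Lrguk and 0.22 at Paxip1.

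The promoter of A2m, which encodes the protease inhibitor alpha-2-macroglobulin, measured 3.32, 3.5 and 3.54 CPM in D2 and 11.1, 12.4 and 15.5 CPM in D2-13B6. In B6 it was at 11.4, 12.3 and 12.4 CPM and in B6-13D2 at 1.24, 1.93 and 1.81 CPM. The promoter of Boll, a germ cell RNA-binding protein gene, was at 2.36, 2.6 and 2.4 CPM in D2 and 10.1, 7.19 and 6.68 CPM in D2-13B6. A2m and Boll followed the segment on both backgrounds, with called differences of 2.84 and 2.13 between B6 and B6-13D2 (adjusted p = 6e-14 and 1.62e-07, edgeR). Slc19a3, a thiamine transporter gene, rose by 1.74 (SE 0.2), and the uncharacterised gene 1700019A02Rik by 2.23 (SE 0.21), the latter with a smaller difference of 0.92 on the B6 background (adjusted p of the difference between backgrounds 0.014, edgeR).

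**Figure D4:**
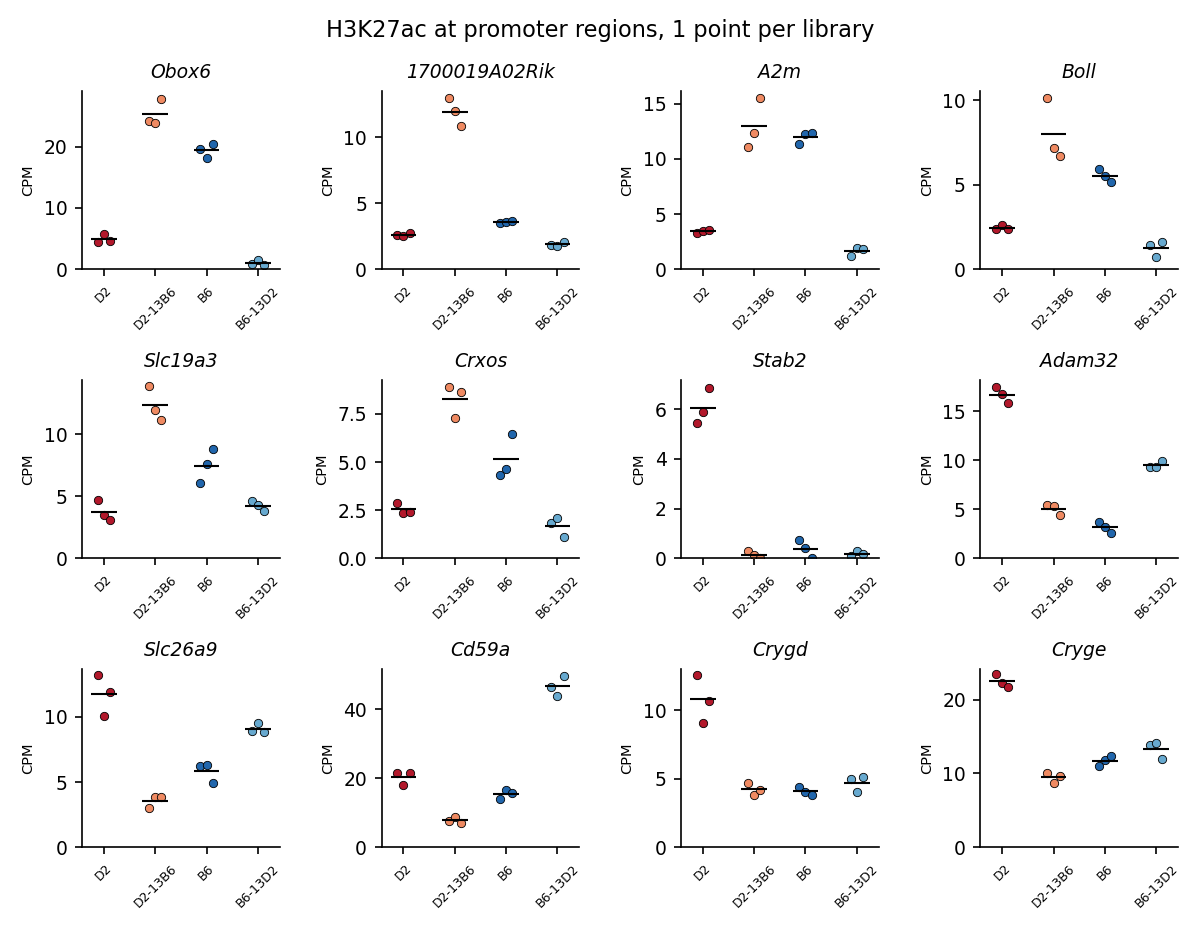
H3K27ac in CPM at the promoter regions with the 6 largest gains and the 6 largest losses in D2-13B6, with 1 point per library and a line at the mean of each line's 3 libraries. Obox6 stands at 23.8 to 27.8 CPM in D2-13B6 and 4.39 to 5.77 CPM in D2, and Stab2 at 5.46 to 6.86 CPM in D2 and 0.716 CPM or lower in the 9 other libraries.

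Off chromosomes 11, 13, X and Y the largest loss by the naming rule was at a region of Stab2, the gene of a scavenger receptor that takes up hyaluronan. This region, on chromosome 10 at 87007231 to 87007641 and 0.383 kb from the start of the gene, measured 5.46, 5.88 and 6.86 CPM in D2 and 0.303, 0.112 and 0 CPM in D2-13B6 (log2 difference -5.31, SE 0.47, adjusted p = 5.68e-12, edgeR). B6 and B6-13D2 were at 0.716 CPM or lower, so the signal was seen in the D2 line and not in the 3 others. Its central 300 bases are given for that reason; capitals mark CG dinucleotides, of which there are 3.

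Region of Stab2, chr10:87007286-87007585, plus strand: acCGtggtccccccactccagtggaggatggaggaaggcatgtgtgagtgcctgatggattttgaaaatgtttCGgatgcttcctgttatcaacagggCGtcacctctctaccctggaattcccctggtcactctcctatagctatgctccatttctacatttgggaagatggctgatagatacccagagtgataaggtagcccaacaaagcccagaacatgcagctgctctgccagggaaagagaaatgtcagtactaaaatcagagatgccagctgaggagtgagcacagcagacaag

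A region of 5262 bp over exons of Pkd1l2, a polycystin family gene, fell by 3.35 on the log2 scale (SE 0.16), from 62.6, 54.8 and 63.2 CPM to 5.46, 6.52 and 5.49 CPM. B6 was at 64.4 to 71.5 CPM and B6-13D2 at 101 to 108 CPM there, so D2-13B6 alone was low, and H3K9me3 was 57.3 and 40.3 CPM in D2 and 96.2, 64.2 and 75.8 CPM in D2-13B6, a difference that was not called (adjusted p = 0.0504, edgeR). An intron of Aass, a lysine degradation gene, fell from 27.6, 22 and 23.9 CPM to 5.26, 5.28 and 5.82 CPM. That region was at 1.02 to 1.56 CPM in B6 and 17.4 to 19.3 CPM in B6-13D2, so it followed the segment on both backgrounds.

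Adam32, which encodes a membrane protein of the ADAM family, lay in the longest run of losses outside the satellite described further on. All 13 tested regions from chromosome 8 position 24896887 to 24958423 were lower, with a median of -1.71. Summed over the run, H3K27ac was 301, 266 and 290 CPM in D2 and 86.3, 99.7 and 104 CPM in D2-13B6. B6 was at 88.6 to 92.4 CPM and B6-13D2 at 215 to 231 CPM, so both lines with the B6 segment were low.

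Other promoters with losses were those of Cd59a, a complement inhibitor gene, Slc26a9, an anion transporter gene, and the lens crystallin genes Crygd and Cryge. Cd59a fell from 21.6, 18.1 and 21.5 CPM to 7.69, 8.65 and 7 CPM, and H3K9me3 there was 8.06 and 6.98 CPM in D2 and 45, 35.9 and 22.5 CPM in D2-13B6 (log2 difference 2.16, adjusted p = 7.34e-07, edgeR). In B6 and B6-13D2 the same promoter was at 14.1 to 16.7 and 43.9 to 49.7 CPM of H3K27ac. Crygd and Cryge had no called difference between B6 and B6-13D2 (log2 differences -0.2 and -0.19).

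Major satellite, the tandem repeat of mouse pericentromeres, fell by less. A second 20-base sequence was taken from the regions called lower, and is shown with the central 300 bases of 1 region that holds it because nearly all its holders sit in 1 array; capitals mark the 20 bases.

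Shared 20 bases: AAATCACTGAAAAACGTGAA

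Satellite region, chr9:3032418-3032717, minus strand: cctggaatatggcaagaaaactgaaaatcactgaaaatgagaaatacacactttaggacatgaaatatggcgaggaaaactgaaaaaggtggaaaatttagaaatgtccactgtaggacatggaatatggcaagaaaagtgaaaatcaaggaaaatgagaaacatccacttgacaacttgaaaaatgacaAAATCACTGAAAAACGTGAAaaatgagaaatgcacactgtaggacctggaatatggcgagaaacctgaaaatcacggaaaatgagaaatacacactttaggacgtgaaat

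The sequence had 138 matches in the genome, 131 of them on chromosome 9 and 7 on chromosome 14, and 71 of 136 neighbouring pairs were 234 bp apart, the unit of major satellite. The sequence was chosen among losses of this contrast, so the calls describe the choice: of 27 tested holders 26 were called lower, against 1.24% of all regions, with a median log2 difference of -0.49, and the 26 on chromosome 9 belonged to a run of 29 lower regions over 38.5 kb. Summed over the 27, H3K27ac was 9210, 9290 and 7900 CPM in D2 and 6440, 6290 and 6400 CPM in D2-13B6, which do not overlap. The 26 on chromosome 9 are parts of 1 array and not separate observations, and the 1 on chromosome 14 was not called (log2 difference -0.37, adjusted p = 0.0556, edgeR). Without replicate 1 of D2-13B6 0 of them were called lower by edgeR (23 at an unadjusted p under 0.05), without replicate 2 of D2 1 was, and with no filter on low counts 1 was. On the B6 background the order was the other way: 10300 to 11000 CPM in B6 and 6190 to 7890 CPM in B6-13D2, with all 27 called higher in B6 and all 27 called different between backgrounds. H3K9me3 there was 58400 and 57000 CPM in D2 and 57900, 65300 and 61900 CPM in D2-13B6.

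The calls on the 2 backgrounds were set side by side region by region. Off chromosomes 11 and 13, 3418 regions were called in the same direction in both, 33.3% of the D2-13B6 and D2 calls and 15.7% of the 21783 calls between B6 and B6-13D2, and 612 were called in opposite directions. Of the gains 34.1% were also higher in B6 than in B6-13D2, and of the losses 30.6% were also lower, where 5.34% and 7.48% of all regions were higher and lower in B6. The difference between backgrounds was itself called at 8650 regions (5.09%), a count that ran from 3703 without replicate 2 of D2 to 19540 without replicate 1 of D2-13B6.

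In addition, 3 B6 and 3 D2 lines were profiled separately with another H3K27ac antibody. Of the gains, 5197 overlapped a region of that list, and 3555 overlapped one that differed between the strains. Over all tested regions off chromosomes 11 and 13, these numbers were 88448 and 48302, and for the losses 1734 and 1178. B6 was the higher strain at 2857 of the 3555 gains and D2 at 698, while over all tested regions off chromosomes 11 and 13 the split was 24825 to 23477. Of the losses, 857 overlapped a region higher in D2 and 321 one higher in B6. The D2 5-5 line is 1 of those 3 D2 lines, so the comparisons share a line though no library. Of the L1 holders off chromosomes 11 and 13, 72 overlapped a region of that list, and B6 was higher at 70 of 71 called.

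Over the promoters of all 15718 protein-coding genes with a tested region, on every chromosome, 449 were higher and 154 lower, and the counts of listed genes are to be read beside these. Of 16 naive pluripotency genes with a tested promoter region, 1 was higher and 0 lower, with a median of 0.1, beside a median of 0 over the promoters of all genes. The 1 was Nr0b1, a nuclear receptor gene on chromosome X, where 10.4% of tested regions were higher and the median was 0.15, at 27.5, 24.8 and 26.5 CPM in D2 and 40.8, 44.9 and 48.6 CPM in D2-13B6 (log2 difference 0.76, SE 0.13, adjusted p = 6.27e-05, edgeR). Among 12 core pluripotency genes Lin28a, which blocks maturation of let-7, was higher by 0.63 (SE 0.15), a call lost without replicate 2 of D2 (0.57, adjusted p = 0.116, edgeR). Pou5f1 was at 234, 213 and 233 CPM in D2 and 223, 243 and 240 CPM in D2-13B6, which overlap.

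Among 13 formative and primed genes, Lef1, a Wnt transcription factor gene, was higher by 0.74, and Etv4 on chromosome 11 was lower by 0.51 on the log2 scale. Both calls were lost without replicate 1 of D2-13B6, with differences of 0.47 and -0.37. Of 20 germ layer regulators Cdx2, Lefty1 and Hand1 were higher by 0.59, 0.5 and 1.09, and Hand1 lies on chromosome 11, whose regions had a median of 0.29. Cdx2, also the only called gene of the 5 trophoblast markers, lost its call without replicate 2 of D2 (0.67) and without replicate 3 of D2-13B6 (0.47). Lefty1 lost its call without replicate 2 of D2 (0.34) and Hand1 without replicate 3 of D2 (0.98). Of 21 genes of LIF, MEK and GSK3 signalling, the Wnt targets Axin2, also on chromosome 11, and Sp5 were higher by 0.47 and 0.45, and without replicate 2 of D2 both calls were lost (0.41 and 0.42).

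Obox6 was the only called gene of 6 tested 2-cell stage genes; Zscan4d stood at 2.89, 2.49 and 3.2 CPM in D2 and 2.33, 1.91 and 3.12 CPM in D2-13B6. Of 19 germline genes, 2 were higher, Tex19.1 and Tex14, the latter at a region that is also the promoter of Rad51c, of 19 heterochromatin genes 1, Cbx1, the gene of a heterochromatin protein of the HP1 family, and of 18 histone acetylation genes 1, Kat7, with differences of 0.84, 0.45, 0.42 and 0.39. All 4 lie on chromosome 11, which was higher as a whole, and without replicate 2 of D2 Tex14, Cbx1 and Kat7 were not called (0.41, 0.38 and 0.31). Kat7 was also not called without replicate 1 of D2-13B6 (0.49). Of 18 imprinted genes 0 were called in either direction by edgeR or DESeq2, with 2 higher and 0 lower at an unadjusted p under 0.05 by edgeR. The DESeq2 Wald test did not call Hand1, Cdx2, Lefty1 or Sp5, with adjusted p = 0.241, 0.144, 0.095 and 0.0799. With only D2 and D2-13B6 in the edgeR fit, these 4 and Tex14, Cbx1 and Kat7 were not called, at adjusted p = 0.0607 to 0.0874. With no filter on low counts Etv4, Tex14, Cbx1, Kat7, Axin2 and Sp5 were not called, at adjusted p = 0.0505 to 0.143 (edgeR), and with DESeq2 size factors Cbx1 and Kat7 were not. TMM factors computed without chromosomes 11, 13, X and Y left Kat7 uncalled (adjusted p = 0.0622, edgeR).

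Chromosome 11 was higher in D2-13B6 along its whole length. Its 12935 tested regions had a median log2 difference of 0.29, with 1497 higher and 33 lower, and the medians of 5 Mb windows lay between 0.15 and 0.42. As a percentage of the counts on chromosomes other than 11, 13, X and Y, it held 9.08, 9.04 and 9.15 in the D2 libraries and 11.3, 10.9 and 10.8 in the D2-13B6 libraries, and 8.55 to 8.85 in the 6 libraries of B6 and B6-13D2. H3K9me3 libraries of the same lines showed the shift too, at 6.85 and 7.2% in D2 and 9.11, 9.73 and 9.63% in D2-13B6. The number of copies of the chromosome was not measured here, and its part in the shift was not tested.

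After the chromosome's median was subtracted, the largest gains on chromosome 11 were again L1 promoters. The 3 named regions, near Olfr30, Gm11567 and Gm12169, rose by 5.03, 3.26 and 2.95 before subtraction. The 3 largest losses were in introns of Kcnip1 and Eif4enif1 and in a Timp2 exon, at -1.3, -1 and -0.93. The call in Eif4enif1 was lost without replicate 2 of D2 (-0.75, adjusted p = 0.19, edgeR) and with the DESeq2 Wald test (adjusted p = 0.0679).

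Chromosome 13 was lower, and mostly within 1 stretch. Outside 65 to 70 Mb its 8798 regions had a median of -0.18, with 389 higher and 263 lower. From 65 to 70 Mb, 350 of 596 regions were lower and 41 higher, with a median of -1.72, and the 2 windows from 65 to 67 Mb had medians of -4.57 and -3.72. The stretch held 3.56, 3.53 and 3.48 in D2 and 0.451, 0.475 and 0.486 in D2-13B6 as a percentage of the same counts, close to the 0.473 to 0.492 of B6. A region 13.2 kb from the start of Gm10139 measured 69.8, 54.9 and 66.4 CPM in D2 and 0.202, 0 and 0.108 CPM in D2-13B6. In B6-13D2 the stretch held 3.92, 3.99 and 3.97, also as a percentage of the same counts. H3K9me3 fell in the same stretch, with a median of -3.04. Its share of counts there in D2-13B6 was 0.161 times that in D2, against 0.134 times for H3K27ac. Neither the number of copies of the stretch nor the alignment of D2 reads to the reference was measured, and their part was not tested.

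Other chromosome 13 regions followed the segment in the opposite direction. An intron of Golm1, a Golgi membrane protein gene, at 59655361 to 59658376, measured 0.857, 0.565 and 0.686 CPM in D2 and 70, 72 and 73.1 CPM in D2-13B6, with 58.5 to 66.4 CPM in B6 and 0.271 to 0.643 CPM in B6-13D2. H3K9me3 there was 1.79 and 1.55 CPM in D2 and 10.8, 8.96 and 16.2 CPM in D2-13B6. In B6-13D2 it was 2.74 and 0.677 CPM, so both marks were low with the D2 segment. Whether reads of D2 sequence align there was not tested. Of 28 listed zinc finger genes with a tested promoter region, all on chromosome 13 except Zfp454 on chromosome 11, 6 were higher and 3 lower by edgeR and 5 and 0 by DESeq2. The 6 were Zfp459, Zfp729b, Zfp874a, Rsl1, Zfp738 and Zfp273, with log2 differences of 0.43 to 1.42, and the 3 were Zfp456, Zfp934 and Zfp935, at -0.73 to -0.49. Zfp459 was at 57.5, 53.1 and 57.8 CPM in D2 and 120, 136 and 142 CPM in D2-13B6, and Rsl1, a repressor of sex-limited liver genes, at 6.32, 4.52 and 5.6 and at 12.8, 12.6 and 12.5 CPM. Both followed the segment on the B6 background too, with differences of 1.18 and 1 between B6 and B6-13D2. Zinc finger genes of this cluster are close copies of each other, so their counts may hold reads of neighbours.

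On chromosome X 461 of 4427 regions were higher and 23 lower, with a median of 0.15, and 142 of the 461 held the L1 sequence. Chromosome X held 2.39, 2.32 and 2.37 in D2 and 2.62, 2.6 and 2.61 in D2-13B6 as a percentage of the counts on chromosomes other than 11, 13, X and Y, which do not overlap. On chromosome Y 29 of 141 regions were higher, 15 of them holders of the L1 sequence, and the median was 0.25. The share of counts on chromosome Y was 0.0879, 0.0943 and 0.0895% in D2 and 0.0863, 0.0914 and 0.0937% in D2-13B6, so the chromosome as a whole did not differ beyond the spread of the libraries. The median H3K9me3 difference was -0.22 on X and -0.27 on Y.

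**Figure D5:**
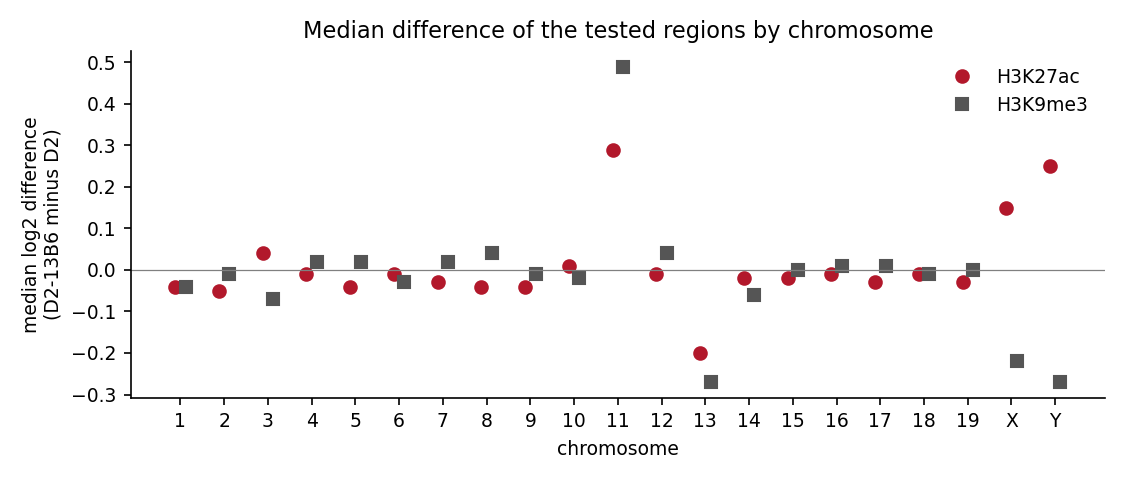
Median log2 difference between D2-13B6 and D2 of the tested regions of each chromosome, for H3K27ac (circles) and H3K9me3 (squares). Chromosome 11 is the highest for both marks, at 0.29 and 0.49, chromosome 13 is low for both, at -0.2 and -0.27, and chromosome X is at 0.15 and -0.22.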

How the data were processed

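H3K27ac and H3K9me3 reads were counted per region by the authors. The deposited values are raw counts, and the column names say that alignments were sorted and duplicates removed. The submitters' processing notes name mm10, Trimmomatic 0.39, HISAT2 2.2.1, MACS 1.4.2, bedtools 2.9.2 and edgeR; the handling of reads with several alignments is not given in the sources used here. Of the H3K9me3 table, 2 columns matched no sample and were not used. Region starts were read as counted from 0, and 1 was added.

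Differences were estimated with edgeR 4.0.16, run in R 4.3.3 (TMM, filterByExpr with a minimum count of 10, quasi-likelihood F-test, two-sided, Benjamini-Hochberg adjustment over all tested regions, calls at an adjusted p under 0.05), with 4 lines in 1 fit. Standard errors come from the F statistics. Libraries of a line whose counts a chi-square test could not tell apart, using regions that held 40 or more counts in the pair, were summed, taking the closest pair of each line; replicates 2 and 3 of D2 agreed as well (p = 0.16 by that test) and were left apart. The edgeR test was checked on simulated data. Alternatives were DESeq2 1.42.0, other scalings, filters and fits, and leaving out each D2 and D2-13B6 library. The 3 B6 and 3 D2 lines profiled separately were tested the same way from their deposited counts. Genes are from GENCODE M21 and sequences from RefSeq GRCm38.p6; a promoter region overlaps 1 kb either side of a gene's start. Regions were named by size of difference among called regions of at least 5 CPM in the higher line, within 50 kb of a protein-coding start, whose samples did not overlap: 6 each way overall and among promoters and 3 each way on chromosomes 11 and 13, with called members of each gene list and the longest runs. The members and lists were chosen with earlier results of these data known.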

Additional observations from a re-analysis of the deposited data

Results flagged for a closer look

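The values here were singled out because a test of the difference between the 2 backgrounds, D2 and B6, was called for the same exchange of B6 for D2 segment sequence. Off chromosomes 11 and 13 the H3K27ac difference depended on the background at 8650 regions (edgeR, adjusted p under 0.05). H3K9me3 at regions holding the L1 promoter sequence was lower in the D2-13B6 contrast than on the B6 background at 160 regions. All 27 satellite regions differed between backgrounds in H3K27ac, but 26 of them lie in the same array on chromosome 9. The sequence that defines the 27 was chosen among losses of the D2-13B6 contrast. At Stab2 the difference between backgrounds was -6.28 on the log2 scale (adjusted p = 4.42e-05, edgeR), at the promoter of Sp5 1.39 (adjusted p = 1.01e-05) and at the promoter of Nr0b1 1.12 (adjusted p = 0.000138). Each line is 1 cell line, so line and genotype cannot be told apart in these values.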

How the results depend on the processing

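Of 145 comparisons of a main count or chromosome median with another setting, 114 stayed within 1.5 times the count or within the spread between libraries. With only D2 and D2-13B6 in the fit, 7818 regions were called over all chromosomes and 6183 off chromosomes 11 and 13 (5164 higher, 1019 lower). With the libraries kept apart, 3 against 3, these were 20626 and 16875, with 5988 lower, 18234 called between backgrounds and 5941 in both backgrounds. The DESeq2 Wald test gave 6212 and 4823 (4199 higher, 624 lower), 4446 between backgrounds, 1531 in both and 737 for H3K9me3. Losses numbered 3572 with library totals and 3705 when a mean count of 20 was required, a filter that gave 1115 H3K9me3 calls. A replicate block with libraries kept apart and only D2 and D2-13B6 in the fit gave 3543 losses and 11457 calls off chromosomes 11 and 13. The replicate block with all 4 lines in the fit gave 18205 calls between backgrounds, and 4699 regions were called in both backgrounds when its B6 contrast was set beside the D2 contrast of the former fit; for H3K9me3 a replicate block over 2 shared numbers gave 1623. Same-numbered libraries did not deviate together (correlations -0.052, -0.024 and -0.002), so the numbers do not pair the samples. The chromosome 13 median outside 65 to 70 Mb was -0.23 with library totals, and -0.11 from summed counts.

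Leaving out each D2 and D2-13B6 library in turn, with the B6 and B6-13D2 libraries always kept, gave 7110 to 16345 calls over all chromosomes, 5710 to 13409 off chromosomes 11 and 13, 4685 to 10334 gains, 1025 to 3075 losses, 3703 to 19540 calls between backgrounds, 2388 to 3984 in both and 727 to 2649 for H3K9me3. Gains holding the L1 sequence numbered 939 where a mean count of 20 was required, which left 956 holders tested, and 1214 to 1598 under the other settings. Of 58 named regions, 12 lost the call under at least 1 of 15 settings and 0 turned direction; of these 870 values 35 lost the call. The settings for L1 and satellite holders and for named regions were added after the data had been seen. Where a mean count of 20 was required, H3K9me3 losses at holders numbered 259. H3K9me3 losses at holders numbered 232 with DESeq2 and 201 to 655 with a D2 or D2-13B6 library left out. With 1 line per genotype and technical libraries, none of these settings measures the spread between lines; low regions near 1 CPM rest on about 10 counts a library.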
